A study of Mus musculus with 6 samples.

Results

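Cells short of amino acids or overloaded with unfolded protein switch on a shared set of genes through the transcription factor ATF4, and 10 genes of this axis were examined in mouse endothelial cells that overexpress the adhesion molecule L1CAM. The genes were chosen by name as transcription factors of the ATF4 branch (Atf4, Atf5, Atf3 and Ddit3, which encodes CHOP) and its effectors (Trib3, Chac1, Asns, Nupr1, Sesn2 and Ddit4). This choice was made with earlier results of these data known, so counts over the genes are descriptions. The genes are 10 of 19938 measured, and each was read by 1 Affymetrix probe set annotated with that symbol alone. The cells under study were lung endothelial cells of C57BL/6 background stably transfected with a pcDNA3.1/Hygro(-) plasmid carrying full-length mouse L1CAM, here called L1CAM cells. They were compared with cells of the same kind carrying the empty plasmid, here called control cells. Both were grown for 4 days to confluence in medium with 20% serum and endothelial growth supplement, and total RNA was hybridised to 3 arrays per group. The sample descriptions carry 1 code for each transfected line and do not say whether a line was a pool or a clone, so an effect of L1CAM and a difference between the transfected lines cannot be told apart.

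ATF4 belongs to the basic leucine zipper factors. Its mRNA is translated best when kinases that sense amino acid shortage, ER stress, viral RNA or haem shortage phosphorylate the initiation factor eIF2, and this arm is called the integrated stress response. ATF4 then raises genes of amino acid supply and further factors, among them CHOP and ATF3, while GADD34, encoded by Ppp1r15a, directs the removal of the phosphate. In endothelial cells the pathway is known from disturbed flow, oxidised lipids and nutrient shortage, and ATF4 can raise Vegfa, a growth factor for vessels.

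Values are log2 expression after RMA, as deposited, so a difference of 1 is a 2-fold change. Differences are L1CAM minus control and were tested with limma over all genes, with a Benjamini-Hochberg adjusted p under 0.05 as the threshold. L1cam itself read 10.49, 10.60 and 10.73 in L1CAM cells and 6.50, 6.77 and 7.31 in control cells. Array medians over all probe sets lay between 6.55 and 6.58, and all 10 genes lay above them on every array. L1CAM replicate 1 stood apart: across genes it correlated with the other L1CAM arrays at 0.995, while L1CAM replicates 2 and 3 correlated at 0.999 and the control arrays at 0.998 to 0.999. Results are therefore also given without it. Of 12 endothelial markers all lay above the array median on every array, with Cdh5 at 13.04 in L1CAM cells and 13.12 in control cells and Pecam1 at 12.58 in L1CAM cells and 12.65 in control cells. Robo4 was called higher (0.44) and Cldn5 lower (-0.22), the latter in only 1 of the 6 fits with 1 array left out. The median difference of the 12 endothelial markers was -0.07. In 8 of them all 3 L1CAM arrays lay below all 3 control arrays, and in 1 above. The shares of all genes were 16% below and 18.6% above. Of the markers of other cell types only mesothelial Msln was called (0.30 higher), and it lay above the median on 1 array. Of 10 fibroblast and mural markers 6 lay below the median on all arrays, as did 5 of 8 leukocyte markers and 6 of 10 epithelial and mesothelial markers. In each of these 3 lists 3 markers lay above the median on every array. The mean level of the fibroblast and mural list ranged over arrays from 5.99 to 6.13 in L1CAM cells and from 6.06 to 6.08 in control cells. That of the leukocyte list ranged from 6.47 to 6.64 in L1CAM cells and from 6.54 to 6.68 in control cells, and that of the epithelial list from 6.15 to 6.26 in L1CAM cells and from 6.12 to 6.15 in control cells. Cd68, a lysosomal protein used as a macrophage marker, read 12.07 in L1CAM cells and 12.23 in control cells, while the pan-leukocyte marker Ptprc lay below the median on every array. In these bulk samples a change in the share of cells expressing a gene and a change in RNA per cell cannot be told apart.

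Of the 10 genes, 9 rose in L1CAM cells, 0 fell and Ddit4 did not pass the test. Across all genes 6.85% were called higher and 8.19% lower, together 15%, and 0.652% were called higher by at least 1, as 6 of the 10 genes were. The rises ranged from 1.45-fold for Sesn2 to 6.11-fold for Trib3, and the median difference of the 10 genes was 1.08, against 0.02 for all genes. In the 9 genes that rose, all 3 L1CAM arrays lay above all 3 control arrays, as they did in 18.6% of all genes, while in 0 of the 10 genes all lay below, as in 16% of all genes. Without L1CAM replicate 1 the same 9 genes were higher and Ddit4 was lower. That fit called 4952 of all 19938 genes in either direction, against 2999 with all arrays. Leaving out L1CAM replicate 2 or 3, or control replicate 2 or 3, gave 8 higher, Sesn2 being the gene lost, with 1033 to 1366 of all genes called. Leaving out control replicate 1 gave 9, with 1809 of all genes called.

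**Figure D1:**
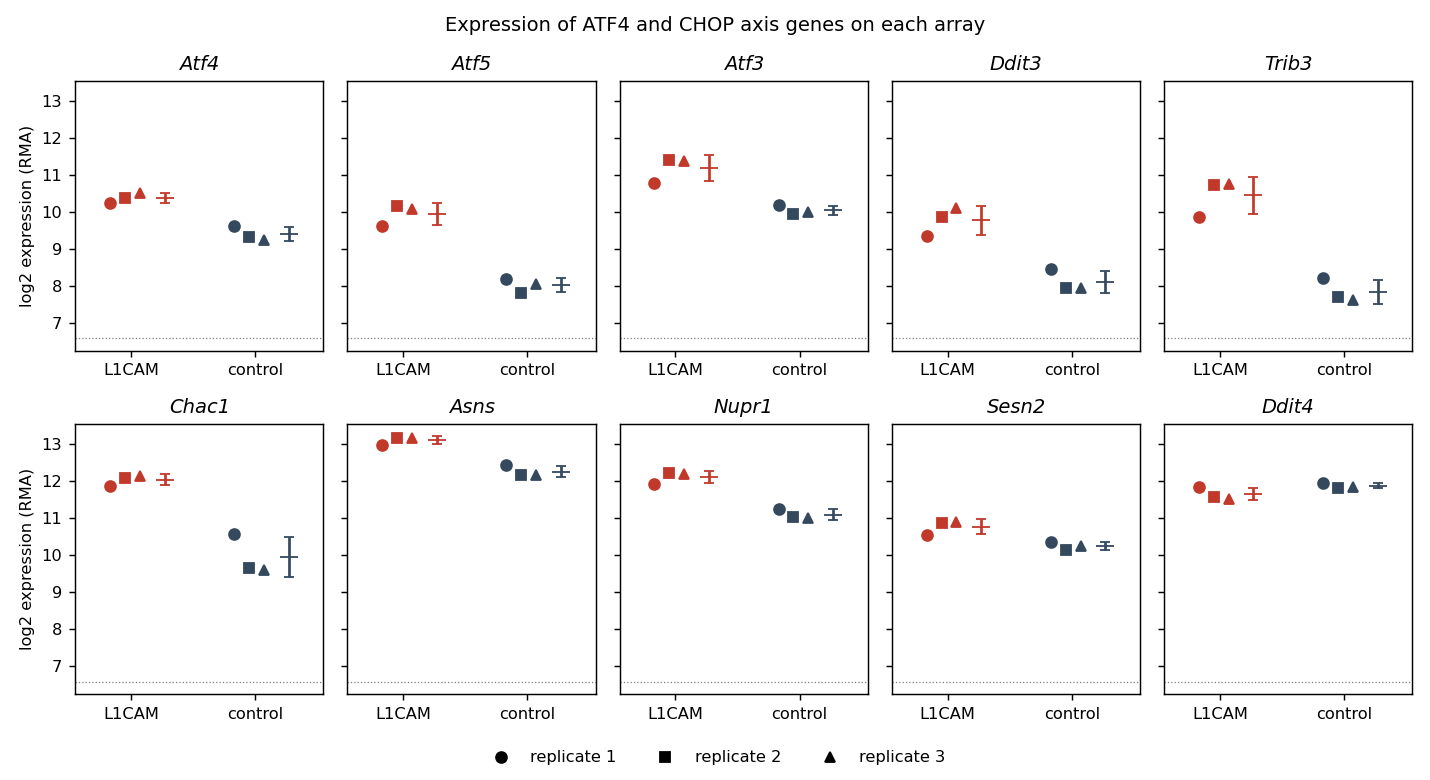
Log2 expression (RMA, vertical axis) of each gene on the 3 L1CAM arrays (red, left) and the 3 control arrays (dark, right), with the mean and SD beside the points and the mean of the array medians as a dotted line. In every panel but that of Ddit4 the L1CAM arrays lie above the control arrays, and L1CAM replicate 1 is the lowest L1CAM array in the 9 genes that rose.

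The transcription factors rose together. Atf4, the central factor of the axis, read 10.25, 10.39 and 10.52 in L1CAM cells, against 9.61, 9.33 and 9.25 in control cells. Its rise of 0.99 (SE 0.11) equals 1.98-fold (limma adjusted p = 0.00181). The groups were clearly apart, the closest arrays being L1CAM replicate 1 and control replicate 1. Arrays measure mRNA, so translation of ATF4, the step at which the pathway is mainly controlled, was not measured.

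Atf5, a close relative of ATF4 that is likewise translated under eIF2 phosphorylation and is known for inducing mitochondrial stress genes, read 9.61, 10.16 and 10.09 in L1CAM cells, against 8.18, 7.80 and 8.06 in control cells. It rose 3.83-fold (difference 1.94, SE 0.16, limma adjusted p = 0.000536), more than any other of the 4 factors. The groups did not overlap, and L1CAM replicate 1 was again the lowest L1CAM array.

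Ddit3, encoding CHOP, a factor that pairs with C/EBP proteins and is best known for promoting death under lasting ER stress, read 9.35, 9.85 and 10.11 in L1CAM cells, against 8.44, 7.93 and 7.93 in control cells. It rose 3.19-fold (difference 1.67, SE 0.21, limma adjusted p = 0.00298). Atf3, a stress-induced factor that often acts as a repressor, read 10.774, 11.412 and 11.382 in L1CAM cells, against 10.186, 9.947 and 10.001 in control cells. Its rise was 2.21-fold (1.15, SE 0.17, limma adjusted p = 0.00514). In both genes L1CAM replicate 1 was the lowest of its group and still lay above every control array.

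Among the effectors the feedback inhibitor and the glutathione-degrading enzyme changed most. Trib3, a pseudokinase that binds ATF4 and CHOP and dampens their activity, read 9.87, 10.73 and 10.74 in L1CAM cells, against 8.21, 7.70 and 7.60 in control cells. Its rise of 2.61 (SE 0.25) equals 6.11-fold (limma adjusted p = 0.00112). Of the 10 genes it had the largest spread among the L1CAM arrays (SD 0.50, n = 3), with replicate 1 at 0.87 under the mean of replicates 2 and 3.

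Chac1, which cleaves glutathione in the cytosol, read 11.88, 12.10 and 12.15 in L1CAM cells, against 10.57, 9.66 and 9.60 in control cells. The rise was 4.29-fold (2.10, SE 0.24, limma adjusted p = 0.00207). Here the spread lay in the control cells, where replicate 1 lay well above the other control arrays (control SD 0.54, L1CAM SD 0.14, n = 3 each).

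Asns, the enzyme that makes asparagine, read 12.99, 13.17 and 13.16 in L1CAM cells, against 12.43, 12.17 and 12.16 in control cells. It rose 1.81-fold (0.85, SE 0.09, limma adjusted p = 0.00161). Nupr1, a small stress-induced chromatin protein, read 11.92, 12.23 and 12.19 in L1CAM cells, against 11.26, 11.03 and 11.01 in control cells. It rose 2.02-fold (1.01, SE 0.10, limma adjusted p = 0.00129). Both genes measured smaller differences than Trib3 and Chac1, and their SDs lay between 0.10 and 0.17 in both groups (n = 3 each).

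The last pair of effectors acts on mTORC1, the kinase complex that drives growth when amino acids are plentiful, and they did not move alike. Sesn2, encoding sestrin 2, a leucine-binding inhibitor of mTORC1, read 10.55, 10.88 and 10.89 in L1CAM cells, against 10.34, 10.13 and 10.24 in control cells. Its rise of 0.54 (SE 0.11, 1.45-fold, limma adjusted p = 0.0155) was the smallest of the 9, and leaving out any of 4 arrays (L1CAM replicates 2 and 3 and control replicates 2 and 3) took its adjusted p to between 0.0616 and 0.0723. Without L1CAM replicate 1 the rise was 0.65 (limma adjusted p = 0.000451).

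Ddit4, encoding REDD1, which restrains mTORC1 through the TSC complex and is also raised by hypoxia and glucocorticoids, read 11.84, 11.57 and 11.53 in L1CAM cells, against 11.95, 11.82 and 11.85 in control cells. The groups overlapped, since L1CAM replicate 1 lay above control replicate 2. The difference was -0.23 (SE 0.09, 95% interval -0.44 to -0.02), and the limma adjusted p was 0.145, with an unadjusted p of 0.0386. Without L1CAM replicate 1, Ddit4 fell by 0.32 and passed the test (limma adjusted p = 0.00689). With each of the other 5 arrays left out it stayed negative (-0.25 to -0.17) and did not pass. The upper end of its interval lay below the lower end of every other gene's interval, the next being that of Sesn2 at 0.29.

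**Figure D2:**
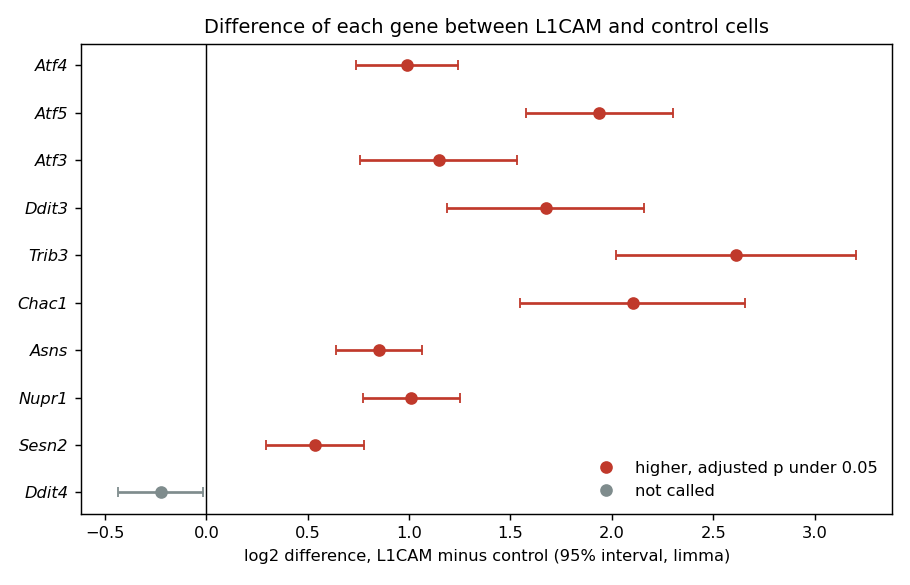
Log2 difference between L1CAM and control cells (horizontal axis) for each gene, with the 95% interval of the limma fit. The 9 genes called higher (red) have intervals above 0, from 0.54 for Sesn2 to 2.61 for Trib3, and Ddit4 (grey) lies at -0.23.

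The genes also shared a pattern within the groups. L1CAM replicate 1 was the lowest L1CAM array in all 9 genes that rose, at 0.18 (Asns) to 0.87 (Trib3) under the mean of replicates 2 and 3, and it was the highest in Ddit4. Control replicate 1 was the highest control array in all 10 genes, Ddit4 included. Replicates 2 and 3 of L1CAM cells differed by at most 0.25. As a mean over the 10 genes, L1CAM replicates 1, 2 and 3 lay 1.02, 1.37 and 1.40 above the control mean, and control replicates 1, 2 and 3 at 0.24, -0.13 and -0.11. The pattern was not particular to these genes. Amino acid transporters, described below, gave 0.94, 1.37 and 1.38 in L1CAM cells and 0.32, -0.21 and -0.11 in control cells. Lists of tRNA synthetases and synthesis enzymes likewise had L1CAM replicate 1 lowest and control replicate 1 highest. In some lists, such as autophagy and mTORC1, L1CAM replicate 1 was instead the highest L1CAM array. The share of all genes with this pattern was not counted. Over the 6 arrays each of the 9 genes correlated with the mean of the other members at 0.971 (Sesn2) to 0.999 (Nupr1), and Ddit4 at -0.786. These correlations describe 6 shared arrays in 2 groups, so any gene that separates the groups scores high.

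**Figure D3:**
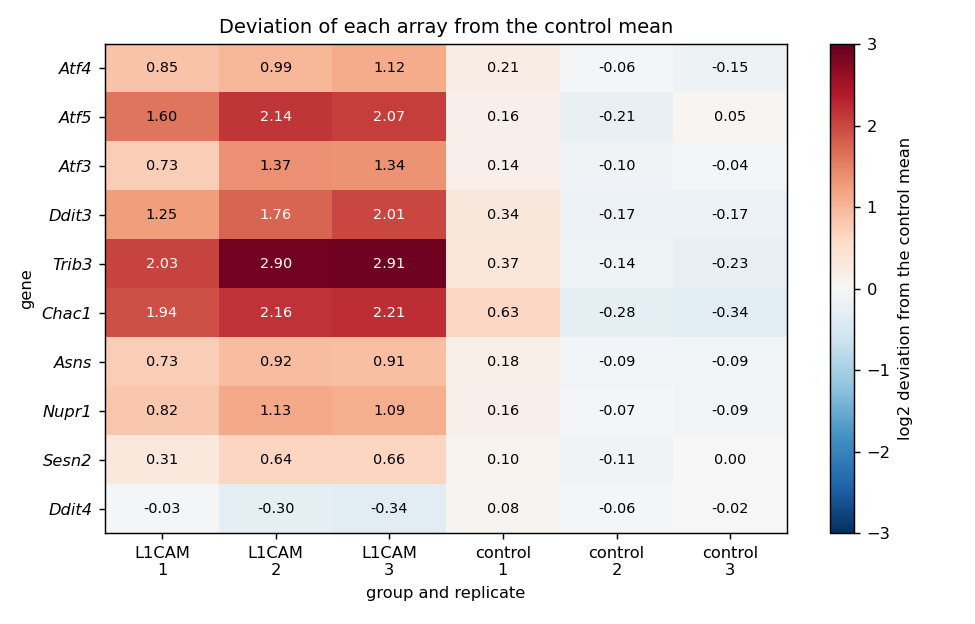
Log2 deviation of each array (columns, by group and replicate) from the control mean of each gene (rows), printed in each cell. Trib3 reaches 2.91 in L1CAM replicate 3, L1CAM replicate 1 is paler than replicates 2 and 3 in the 9 genes that rose, and control replicate 1 is positive throughout.

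Among 766 other genes with a range of at least 1 over the 6 arrays, the 5 whose profile was most like the mean of the 10 genes were Cars, Mthfd2, Nars, Pck2 and Shmt2 (Pearson r 0.997 to 0.998). Cars and Nars charge tRNAs with cysteine and asparagine, Mthfd2 and Shmt2 are mitochondrial enzymes of one-carbon metabolism, and Pck2 is the mitochondrial PEP carboxykinase. Cars read 10.59, 10.83 and 10.87 in L1CAM cells and 9.80, 9.37 and 9.40 in control cells. Mthfd2 read 11.27, 11.57 and 11.56 in L1CAM cells and 10.14, 9.79 and 9.78 in control cells. Both were picked for following the mean profile, so their likeness to it is a description of the choice.

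ATF4 pairs with C/EBP proteins on a composite DNA element whose core can be written TGATGNAA, and the promoters of the 10 genes were searched for it on both strands over the 250 bases before the start of the gene. RefSeq promoters of GRCm38.p6 matched all 10 genes. A match was present in 4 of 10 genes, namely Chac1, Atf3, Nupr1 and Asns, against 3.91% of 27025 genes in the table. Atf4, Atf5, Ddit3, Trib3 and Sesn2, which rose, held no match, and neither did Ddit4, which did not rise. The promoters that hold the element are printed, with that of Ddit4 as an example without a match. Each runs 5′ to 3′ on the strand of the gene, and capitals mark the match.
Chac1: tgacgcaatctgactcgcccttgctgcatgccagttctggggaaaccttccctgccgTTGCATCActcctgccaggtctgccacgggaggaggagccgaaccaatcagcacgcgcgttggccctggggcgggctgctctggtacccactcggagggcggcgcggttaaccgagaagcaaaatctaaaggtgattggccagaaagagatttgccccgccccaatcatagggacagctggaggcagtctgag
Atf3: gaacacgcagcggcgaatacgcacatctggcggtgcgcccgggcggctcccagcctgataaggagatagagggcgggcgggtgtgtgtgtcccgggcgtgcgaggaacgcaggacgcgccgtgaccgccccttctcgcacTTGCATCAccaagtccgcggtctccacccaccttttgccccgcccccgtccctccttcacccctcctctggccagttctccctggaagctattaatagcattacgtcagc
Nupr1: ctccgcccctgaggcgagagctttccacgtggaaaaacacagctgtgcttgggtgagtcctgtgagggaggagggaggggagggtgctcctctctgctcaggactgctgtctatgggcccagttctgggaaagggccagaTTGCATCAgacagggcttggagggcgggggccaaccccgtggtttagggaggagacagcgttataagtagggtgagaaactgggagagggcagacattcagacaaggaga
Asns: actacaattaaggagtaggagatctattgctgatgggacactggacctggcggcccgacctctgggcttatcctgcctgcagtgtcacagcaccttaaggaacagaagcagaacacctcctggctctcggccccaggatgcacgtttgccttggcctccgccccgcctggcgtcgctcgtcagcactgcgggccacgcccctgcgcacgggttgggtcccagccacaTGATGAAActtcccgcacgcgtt
Ddit4: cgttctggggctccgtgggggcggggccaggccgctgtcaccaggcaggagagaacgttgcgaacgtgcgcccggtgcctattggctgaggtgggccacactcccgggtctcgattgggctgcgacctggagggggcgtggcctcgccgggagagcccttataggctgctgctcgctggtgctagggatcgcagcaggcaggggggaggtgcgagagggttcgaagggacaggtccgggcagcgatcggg
The stretches are chr2:119350992-119351241 on the plus strand for Chac1, and on the minus strand chr1:191183334-191183583 for Atf3, chr7:126625471-126625720 for Nupr1, chr6:7693210-7693459 for Asns and chr10:59951771-59952020 for Ddit4. Chac1, Atf3 and Nupr1 carry the same letters, TTGCATCA, on the gene's strand, which is the element read on the other strand. They lie at bases -193 to -186 in Chac1 and at -110 to -103 in both Atf3 and Nupr1, counted from the start of the gene. In Asns the match TGATGAAA lies at -23 to -16 on the gene's own strand. Neither the cyclic AMP response element TGACGTCA nor the ER stress response element was found in the 10 genes' windows, and these occur in 1.77% and 0.13% of genes. The window does not cover elements further away or after the start, and no match says only that these letters are not in it.

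Lists of related genes, here and below, were also drawn up with earlier results of these data known, so their counts are descriptions. They are to be read beside the shares of all genes, 6.85% higher and 8.19% lower. Other known ATF4 targets were examined in 4 lists holding 45 measured genes. Of these 38 rose and 0 fell, with a median difference of 0.92. Dropping L1CAM replicate 1, 2 or 3 gave 40, 36 or 34 rises, and dropping control replicate 1, 2 or 3 gave 38, 32 or 32. Of the genes on these lists, measured or not, 37 had a RefSeq promoter. The core element TGATGNAA was held by 9 of them (24.3%), against 3.91% of 27025 genes. These were Aars, Gars, Tars, Got1, Pck2, Pycr1, Slc7a11, Fgf21 and Vldlr, of which Fgf21 did not rise (-0.01). Aars and Pycr1 are not among the 45 measured genes.

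Amino acid transporters had 10 of 11 members higher, with a median of 1.16. The neutral amino acid carrier Slc1a4 rose 4.45-fold, the glycine carrier Slc6a9 4.30-fold, the leucine carrier Slc7a5 3.77-fold and the glutamine carrier Slc1a5 2.96-fold (limma adjusted p between 0.00105 and 0.00733). Slc7a11, the cystine importer, read 12.10, 12.53 and 12.53 in L1CAM cells and 11.49, 10.50 and 10.78 in control cells, and here too control replicate 1 was high. Slc7a3 was not called (0.87, limma adjusted p = 0.0618). All 12 measured genes of the list of tRNA synthetases and the tRNA exporter Xpot rose, with a median of 0.88. Cars rose 2.36-fold, the threonine enzyme Tars 2.26-fold, the methionine enzyme Mars1 2.15-fold and the leucine enzyme Lars 2.13-fold, and each of the 12 passed in every fit with 1 array left out.

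Of 14 enzymes of amino acid and one-carbon synthesis 11 rose, with a median of 1.12. Aldh1l2, a mitochondrial folate enzyme, rose 6.00-fold, Bcat1, which transaminates branched-chain amino acids, 4.78-fold, Gpt2, which makes alanine, 3.08-fold and Mthfd2 2.95-fold. In the serine pathway Psat1 rose 2.15-fold and Psph 2.80-fold, while Phgdh, the enzyme of the first step, did not pass (0.06, limma adjusted p = 0.691). Phgdh read 9.95, 10.25 and 10.17 in L1CAM cells and 10.01, 10.11 and 10.06 in control cells, so its groups overlapped. Cth, an enzyme of cysteine synthesis, measured 0.92 without passing (limma adjusted p = 0.137), and it passed without L1CAM replicate 1. Of 8 other targets 5 rose. The mitochondrial protease Lonp1 rose 2.08-fold, the translation repressor Eif4ebp1 1.98-fold, Vegfa 1.84-fold and the lipoprotein receptor Vldlr 1.44-fold. Lonp1 and Vldlr lost their calls without L1CAM replicate 3, control replicate 2 or control replicate 3, and this list had 2 to 5 calls with 1 array left out. The secreted factor Fgf21 lay below the array medians and measured -0.01 (limma adjusted p = 0.984), and Stc2 measured -0.26 (limma adjusted p = 0.0752).

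**Figure D4:**
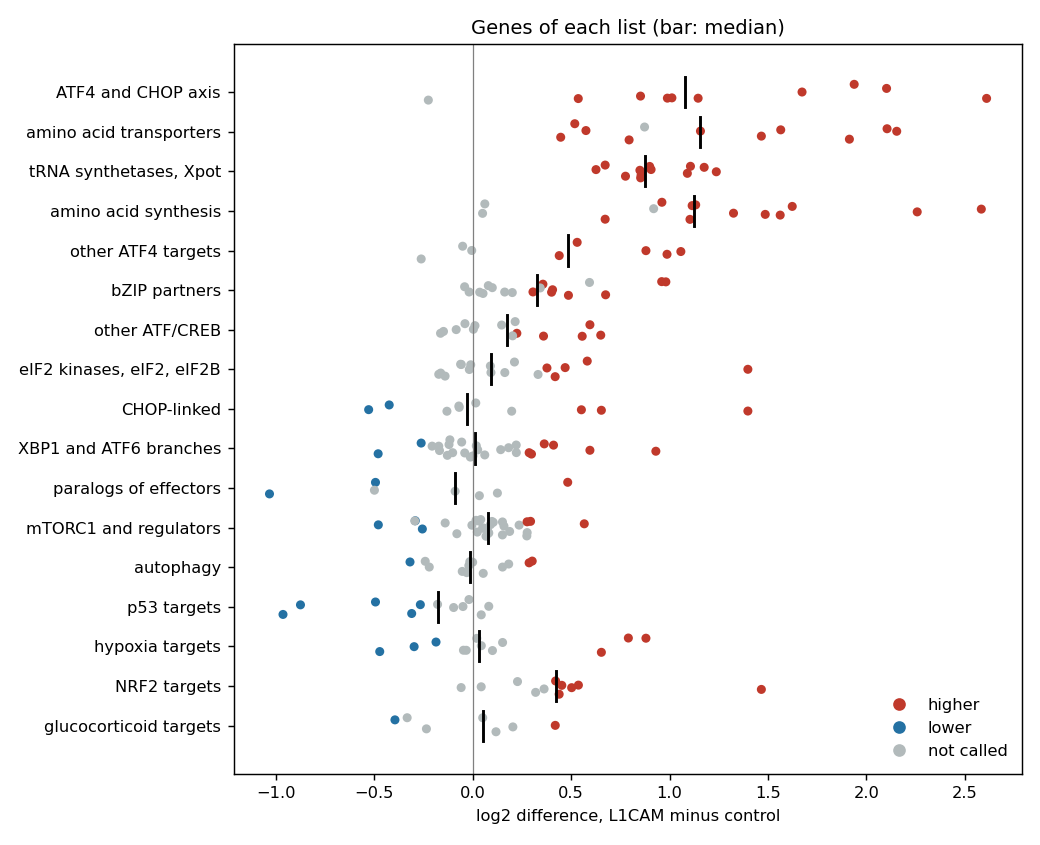
Log2 difference (horizontal axis, L1CAM minus control) of every measured gene in 17 lists, coloured by whether it was called higher, lower or neither, with a bar at each list's median. The 3 amino acid lists (medians 0.88 to 1.16) lie with the ATF4 and CHOP axis (1.08), and the lists of the other ER stress branches and of mTORC1 lie around 0.

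Upstream of ATF4, 5 of 17 genes of the eIF2 kinases, eIF2, eIF2B and their regulators rose and 0 fell, with a median of 0.09. Of the 4 kinases none passed: Eif2ak1 (HRI) measured -0.14, Eif2ak2 (PKR, itself interferon-inducible) 0.33, Eif2ak3 (PERK) -0.16 and Eif2ak4 (GCN2) 0.09, with limma adjusted p of 0.155, 0.0627, 0.066 and 0.612. Eif2ak2 is the only one of them whose mean was higher by more than 0.1. Both regulatory subunits of the eIF2 phosphatase rose, Ppp1r15a (GADD34) 2.64-fold and Ppp1r15b 1.34-fold. Ppp1r15a read 9.45, 10.78 and 10.78 in L1CAM cells and 9.06, 8.84 and 8.91 in control cells, so L1CAM replicate 1 lay far nearer to the control cells than replicates 2 and 3. Its call (limma adjusted p = 0.0289) was lost when any array but L1CAM replicate 1 was left out. Eif2s2 and Eif2b3, subunits of eIF2 and eIF2B, rose by 0.58 and 0.47. The calls of Ppp1r15b and Eif2b3 were lost without control replicate 2 or 3, and that of Eif2s2 without control replicate 3. With 1 array left out this list had 0 (without control replicate 3) to 8 calls (without L1CAM replicate 1), and 4, 1, 3 and 3 without control replicates 1 and 2 and L1CAM replicates 2 and 3.

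Factors that pair with ATF4, CHOP or ATF3 had 8 of 18 members higher and 0 lower, with a median of 0.32. Cebpg, a common partner of ATF4, read 9.86, 10.25 and 10.22 in L1CAM cells and 9.30, 9.02 and 9.07 in control cells. It rose 1.97-fold (limma adjusted p = 0.0029), and Jdp2, a repressor of the AP-1 type that is close to ATF3, rose 1.95-fold. Cebpb rose 1.60-fold and Fosl2 1.40-fold, and the calls of both were lost without any array but L1CAM replicate 1. Dropping L1CAM replicate 1 left 10 calls in the list, dropping control replicate 1 left 5, and each other such fit 4. Of 14 other ATF and CREB factors 5 rose and 0 fell (median 0.17). Creb5 rose 1.57-fold and Creb3l4 1.47-fold, and both calls held with any 1 array left out, whereas Atf6 (1.51-fold) and Atf1 (1.28-fold) lost their calls without L1CAM replicate 2 or 3 or control replicate 2 or 3, and Atf6 also without control replicate 1. This list had 5 calls when L1CAM replicate 1 was dropped, 4 when control replicate 1 was, and 2 in each other such fit.

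Of 10 genes linked to CHOP in translation recovery, ER oxidation and cell death 3 were called higher and 2 lower, with a median of -0.03. Besides Ppp1r15a, the ER oxidase Ero1a rose 1.57-fold and the survival gene Bcl2l1 1.47-fold. The death receptor Tnfrsf10b, which CHOP is known to raise in human cells, read 10.53, 10.75 and 10.71 in L1CAM cells, against 11.10, 11.23 and 11.24 in control cells. It was 1.44-fold lower (-0.53, SE 0.08, limma adjusted p = 0.00489) and kept its call whichever array was left out. Pmaip1, the death-promoting NOXA, was 1.34-fold lower, and Bcl2l11 (BIM) did not pass (-0.07, limma adjusted p = 0.677). The other calls of this list did not hold in every fit with 1 array left out. Fewer of all genes were called in those fits as well (1033 to 1809, against 2999), except without L1CAM replicate 1 (4952). Dropping L1CAM replicate 3 or control replicate 2 left 0 genes higher and 1 lower, and dropping L1CAM replicate 2 or control replicate 3 left 1 higher and 1 lower. Dropping control replicate 1 left 1 higher and 2 lower, and dropping L1CAM replicate 1 gave 4 higher and 2 lower. Of the fits with 1 array left out, Ero1a was called in 1, Pmaip1 in 2 and Bcl2l1 in 4 of 6.

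The other branches of the ER stress response had 6 of 26 members higher and 2 lower, with a median of 0.01. Herpud1, a degradation factor that ATF4 can raise as well, rose 1.91-fold and kept its call in every fit with 1 array left out. Atf6, the IRE1 gene Ern1 (1.33-fold) and Derl1 (1.29-fold) rose, and Sdf2l1 (1.40-fold) and Edem1 (1.20-fold) were lower. Hspa5, the ER chaperone BiP and a classical target of these branches, read 12.30, 12.58 and 12.67 in L1CAM cells and 12.30, 12.32 and 12.27 in control cells. It measured 0.22 (limma adjusted p = 0.169), and L1CAM replicate 1 lay within the control range. Hspa5 passed without L1CAM replicate 1. The list had 12 calls without L1CAM replicate 1, 2 each without L1CAM replicates 2 and 3, 3 without control replicate 1 and 1 each without control replicates 2 and 3.

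Of 7 paralogs of the effectors 1 rose, Trib2 (1.40-fold), and 2 fell, both of them sestrins, while 4 did not pass the test. Sesn3 read 8.20, 7.87 and 7.75 in L1CAM cells, against 8.94, 8.98 and 9.01 in control cells. It was 2.05-fold lower (-1.03, SE 0.11, limma adjusted p = 0.00158) and kept its call whichever array was left out. Sesn1, a p53 target, was 1.41-fold lower (limma adjusted p = 0.0344), and of the fits with 1 array left out only that without L1CAM replicate 1 kept this call and that of Trib2. Of the sestrins, Sesn2 thus passed the test as higher and both others as lower. The list had 5 calls without L1CAM replicate 1 and 1 without each of the other arrays.

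Sestrin 2 and REDD1 restrain mTORC1, and the list of mTORC1 and its regulators had 3 of 29 genes higher and 3 lower (median 0.08). Across all genes 6.85% were called higher and 8.19% lower. The Rag GTPase Rraga rose 1.48-fold, and Castor2, a relative of the arginine sensor, was 1.39-fold lower. Depdc5 and Nprl2, subunits of the GATOR1 inhibitor, were 1.22-fold and 1.19-fold lower, and Akt1s1 and Rragb were 1.23-fold and 1.21-fold higher. Castor2 kept its call in every fit with 1 array left out, and the list had 10 calls without L1CAM replicate 1, 2 each without L1CAM replicates 2 and 3, 5 without control replicate 1 and 1 each without control replicates 2 and 3. Of 13 autophagy genes 2 rose, the cargo receptor Sqstm1 (1.23-fold) and Atg10 (1.22-fold), and Ulk1 was 1.25-fold lower. The number of calls in the autophagy list changed with the array left out. It was 5 without L1CAM replicate 1, 1 each without L1CAM replicate 2 and control replicate 1, and 0 without L1CAM replicate 3 or control replicates 2 or 3.

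Some of the 10 genes also answer to other inducers, whose targets were counted. Targets of p53, which can raise Sesn2 and Ddit4, had 0 of 11 measured members higher, 5 lower and 6 not called (median -0.18). Cdkn1a and Bax were on this list but were not measured. Btg2 was 1.95-fold lower, Trp53inp1 1.83-fold and Ccng1 1.24-fold. Their calls held with any 1 array left out, and 3 to 5 members were called lower in those fits. Hypoxia targets had 3 of 12 higher (Vegfa, Ndrg1 and Ero1a) and 3 lower (Car9, Bnip3 and Egln3), with a median of 0.03. Glucocorticoid targets had 1 of 7 higher, Tsc22d3 (1.34-fold), and 1 lower, Klf9 (1.32-fold). Targets of NRF2, which can raise Sesn2 and Slc7a11, had 6 of 11 higher and 0 lower (median 0.42). They were led by Slc7a11 (2.76-fold) and the haem oxygenase Hmox1 (1.45-fold), followed by Gsta4, which lay below the array medians throughout, and Txnrd1 (1.37-fold). NRF2 targets had 8 calls when L1CAM replicate 1 was dropped, 6 when control replicate 1 was, and 2 in each other such fit. Hypoxia targets had 7 calls without L1CAM replicate 1 and 2 to 4 in the other fits, and glucocorticoid targets 5 and 1. Some genes of these lists are counted on lists above as well, so the counts overlap. Among them are Slc7a11 (transporters), Vegfa (other ATF4 targets), Ero1a (CHOP-linked genes) and Sesn1 (paralogs). The part of these other inducers in the changes of the 10 genes was not tested.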

How the data were processed

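Total RNA of 3 L1CAM and 3 control cultures was measured on Affymetrix arrays. The deposited values are log2 expression per probe set, and per the submitters' processing notes the authors used RMA and version 1.1 of Affymetrix Expression Console. No source used here gives other settings or the array's genome build. RMA draws arrays to a common distribution, so differences are relative to the other genes, and fold changes of dim genes are compressed. Scanner files and detection calls were not used here. The number of arrays limits the precision.

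Of 35512 probe sets, 21789 had 1 gene symbol in the platform annotation, 1621 had several and 12102 were not listed. Symbols were checked through Entrez identifiers against the GRCm38.p6 RefSeq table, which changed 0. The probe set with the highest mean stood for a gene, leaving 19938 genes. They were fitted with lmFit and eBayes of limma 3.58.1 (R 4.3.3), group as the only term, and adjusted over all genes (Benjamini-Hochberg, threshold 0.05). Intervals are 95% intervals of that moderated fit. Scripts were tested on simulated data. Python 3.11.15 with pandas 2.3.3 and matplotlib 3.10.9 served for tables and plots.

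The 10 genes and the 20 other lists (260 of 270 entries measured) were chosen with earlier results of these data known, so their counts are descriptions. Genes named are the 10, L1cam, up to 4 called genes per list and direction by size of difference (otherwise the 2 with the smallest p), up to 4 marker genes per list with the highest control means, and the 5 genes most like the 10. Genes of the 4 lists of other ATF4 targets are also named where a promoter held the core element. Chosen beyond this rule, after their values were seen, are the 4 eIF2 kinases, Slc7a3, Slc7a11, Phgdh, Psat1, Psph, Cth, Fgf21, Stc2, Bcl2l11, Hspa5 and Ptprc. The cultures are described by the labels as biological replicates. Whether their spread includes separate transfections is not known.

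Replicate numbers are shared between the groups, but the deviations of same-numbered arrays from their group means correlated at -0.1, -0.1 and -0.03, so the fit has no pairing term. Alternatives were quantile normalization again, equal array medians, a filter on dim probe sets (3 or more arrays above their median required), averaging all probe sets of a gene, an intensity trend, an ordinary linear model, array weights, the replicate number as a block and leaving out each array.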

Additional observations from a re-analysis of the deposited data

How the results depend on the processing

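No gene of the 10 changed direction under any alternative. Of the 10 genes 9 were called higher under every alternative except the ordinary linear model without shared variance (3, with 581 of all genes called against 2999) and the fits without L1CAM replicate 2 or 3 or control replicate 2 or 3 (8 higher, 0 lower, 1033 to 1366 of all genes). The fit without L1CAM replicate 1 gave 9 higher and 1 lower, with 4952 of all genes called, and that without control replicate 1 gave 9 and 0, with 1809. Array weights, which gave L1CAM replicate 1 a weight of 0.323, added Ddit4 as lower (1 gene) and called 5191 genes. With the replicate number as a block 2067 genes were called and the 10 genes kept 9 higher calls (Sesn2 limma adjusted p = 0.0439). Same-numbered arrays did not deviate together, and 0 of 3 L1CAM arrays correlated best with their own number. The ordinary linear model called 0 genes among the paralogs, transporters, autophagy, CHOP-linked, other ER stress, mTORC1, NRF2, endothelial and epithelial lists, 1 each among the eIF2 genes, bZIP partners, other ATF4 targets and glucocorticoid targets, 2 each among the other ATF and CREB factors, p53 and hypoxia targets, 5 tRNA synthetases and 7 synthesis enzymes. Array weights called 10 eIF2 genes, 8 other ATF and CREB factors, 5 autophagy genes and 4 glucocorticoid targets. The filter on dim probe sets called 9 eIF2 genes, 6 autophagy genes and 0 epithelial markers. The block called 3 other ATF and CREB factors, 3 CHOP-linked genes, 4 genes of the other ER stress branches, 2 mTORC1 genes, 3 hypoxia targets, 1 glucocorticoid target, 1 endothelial and 0 epithelial markers. With 1 array left out the called genes, in either direction, ranged from 0 to 8 of the eIF2 genes, 4 to 10 of the bZIP partners, 2 to 5 of the other ATF and CREB factors, 1 to 5 of the paralogs, 8 to 11 of the transporters, 12 to 12 of the tRNA synthetases, 10 to 12 of the synthesis enzymes, 2 to 5 of the other targets, 0 to 5 of the autophagy genes, 1 to 6 of the CHOP-linked genes, 1 to 12 of the other ER stress branches, 1 to 10 of the mTORC1 genes, 3 to 5 of the p53 targets, 2 to 7 of the hypoxia targets, 2 to 8 of the NRF2 targets, 1 to 5 of the glucocorticoid targets, 0 to 3 of the endothelial and 0 to 1 of the epithelial markers. Signal over background was not available, so genes below the array median are the least certain.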
